A study of Homo sapiens with 12 samples.

Results

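Interferon-stimulated genes, other than the OAS and MHC genes, were followed in U251-APP cells that had lost one of a pair of CTCF-binding sites. The set was chosen by name: 51 interferon-stimulated genes were listed, and those whose symbol had a row in the normalized expression table were kept. This list and the lists of further genes below were drawn up with earlier results of these data known. Their counts beside the shares of all genes are therefore descriptions and not an independent test. Of the 51, 42 had a row, among 11178 rows in all. IFI44L, DDX60, MX1, ISG20, IRF7, IRF9, EPSTI1, CMPK2 and XAF1 had none under their symbols, and were not analysed here. All 42 genes passed the filter on low values, which kept 11128 genes, and none of them passed it through 1 group alone.

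U251-APP is a human glioblastoma line that stably carries mutant APP, the amyloid precursor protein. The growth protocol gives the change as K670N/M671L and the source label names only M671L. All 3 groups, wild type and the knockouts CTCF-A KO and CTCF-B KO, share that transgene, with 4 RNA-seq libraries of total RNA each. In the knockouts, Cas9 and paired guides removed one CTCF-binding site, and single-cell clones were picked after puromycin selection and checked by sequencing of the target. The labels give CRISPR/Cas9 editing as the treatment of all 3 groups, and do not say whether the wild-type cells were transfected or cloned. Loss of a site and passage through transfection, selection and cloning therefore cannot be told apart. Whether the 4 libraries of a group came from separate clones or cultures is not stated, and the p-values cover no more than the spread of these libraries, which may be technical replicates. The study asked how expression differs between either knockout and wild type. In bulk RNA, a change in the number of responding cells and a change in RNA per cell cannot be told apart.

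Type I interferons bind IFNAR1 and IFNAR2 and signal through the kinases JAK1 and TYK2 to a transcription factor complex that holds STAT2 and IRF9 and binds the interferon-stimulated response element (ISRE) in promoters. Interferon gamma signals through JAK1 and JAK2 to promoters that hold the gamma-activated site (GAS). The genes switched on in this way encode sensors of foreign nucleic acid, proteins that block viral entry, translation and budding, the ISG15 conjugation machinery, and parts of antigen processing. Glial cells use the same system.

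Promoters are shown for the 4 genes with an ISRE core match and the largest rise in either knockout, because the ISRE is the sequence feature that ties these genes to interferon signalling. Each is the 250 bases before the transcription start, on the gene's own strand, from RefSeq (GRCh38.p14), with matches to the ISRE core (GAAA, any 2 bases, GAAA) or its reverse complement in capitals. They lie at chr11:313790-314039 on the plus strand, chr1:27672193-27672442 on the minus strand, chr1:89065209-89065458 on the minus strand and chr1:78649539-78649788 on the plus strand. IFI6 has 3 core matches in this stretch, and IFITM1, GBP1 and IFI44 have 1 each, on the antisense strand in GBP1 and IFI44.
IFITM1: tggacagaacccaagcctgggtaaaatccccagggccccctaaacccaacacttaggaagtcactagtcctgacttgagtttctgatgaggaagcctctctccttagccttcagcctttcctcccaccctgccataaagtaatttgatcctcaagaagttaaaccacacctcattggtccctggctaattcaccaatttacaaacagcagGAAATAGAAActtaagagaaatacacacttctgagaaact
IFI6: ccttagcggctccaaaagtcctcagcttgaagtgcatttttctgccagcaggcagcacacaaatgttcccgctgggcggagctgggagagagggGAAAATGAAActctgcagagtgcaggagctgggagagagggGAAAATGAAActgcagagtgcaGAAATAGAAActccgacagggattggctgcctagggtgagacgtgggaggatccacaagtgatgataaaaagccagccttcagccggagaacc
GBP1: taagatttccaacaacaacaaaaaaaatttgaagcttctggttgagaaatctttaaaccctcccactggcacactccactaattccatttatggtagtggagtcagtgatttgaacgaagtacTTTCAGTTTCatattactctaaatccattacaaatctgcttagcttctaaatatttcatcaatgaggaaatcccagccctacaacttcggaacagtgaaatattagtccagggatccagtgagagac
IFI44: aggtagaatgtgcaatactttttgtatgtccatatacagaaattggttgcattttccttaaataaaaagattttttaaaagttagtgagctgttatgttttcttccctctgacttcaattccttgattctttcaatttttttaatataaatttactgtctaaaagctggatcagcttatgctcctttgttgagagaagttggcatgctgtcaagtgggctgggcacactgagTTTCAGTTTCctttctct

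The RefSeq table held promoters for 34 of the 42 genes, each running from 250 bases before to 50 bases after the start. An ISRE core on either strand was present in 23 of the 34 (67.6%), against 227 of 8419 genes tested (2.70%) and 3.65% of all 27303 promoters. The GAS core TTCNNNGAA was present in 9 of 34 (26.5%), against 6.20% of genes tested and 7.88% of all promoters. Both strands were searched for each motif, and a stretch that matched both motifs was counted under each. A match describes these letters only and is not evidence of binding.

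**Figure D1:**
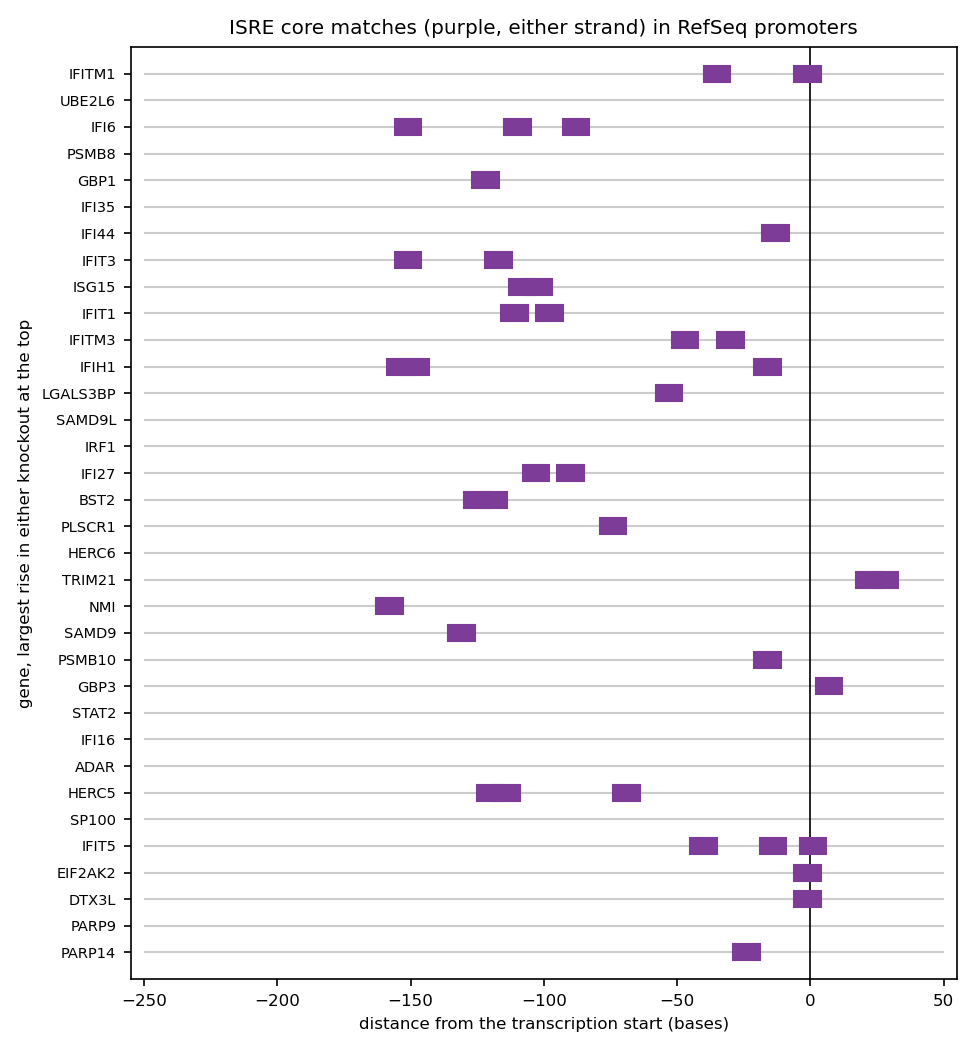
Map of ISRE core matches (purple boxes, either strand) in the promoters of 34 interferon-stimulated genes, with distance from the transcription start in bases on the x axis and the genes on the y axis, ordered by their largest rise in either knockout. Matches are present in 23 genes, and the 11 without one include UBE2L6, PSMB8 and IFI35 near the top.

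Values below are log2 normalized expression as the authors deposited it, and differences are on the same log2 scale, ± the standard error of the limma model with 4 libraries per group. A gene rose or fell where its Benjamini-Hochberg adjusted p, over all 11128 genes, was under 0.05. Depth per library is unknown. The strand setting of the counting is not given, so reads of genes that overlap on opposite strands cannot be told apart. The 3 groups were not equally even: pairs of replicates had a median absolute difference of 0.05 to 0.08 (wild type), 0.06 to 0.08 (CTCF-B KO) and 0.08 to 0.29 (CTCF-A KO). The CTCF-A KO libraries also differed in how values moved with GC content. The median deviation from the wild-type mean was higher in the top than in the bottom decile of GC content by 0.96, 0.45, 0.66 and 0.06 in CTCF-A KO replicates 1 to 4. In wild-type libraries this gap was -0.15 to 0.09, and in CTCF-B KO libraries -0.10 to 0.03. CTCF-A KO replicate 4 thus stood apart from the other 3. Values with replicate 4 as the lone CTCF-A KO library are given for some of the results whose call they change. The spread then comes from the 8 wild-type and CTCF-B KO libraries alone, and the lone library is assumed to vary like them. Calls changed in further cases, with CTCF-A KO differences from wild type of 0.61 for GBP3, 0.55 for HERC5, 0.34 for JAK1 and 0.26 for NMI. Between the knockouts the differences then were 0.14 for IRF1 and 0.12 for PSMB10. Of 10 astrocyte and glioma markers 7 had rows, and GFAP, the astrocyte filament protein, averaged 15.68 in wild type, 12.57 in CTCF-A KO cells and 12.83 in CTCF-B KO cells. The other 6 moved less: in the same order VIM averaged 15.92, 15.94 and 15.52, NES 13.72, 13.60 and 13.36, SOX2 12.87, 12.56 and 12.36, GJA1 11.84, 10.69 and 11.89, FABP7 10.86, 9.39 and 10.06, and SLC1A3 10.42, 9.90 and 9.11. The part of these markers in the results was not tested. None of the 10 microglia and macrophage markers, 8 lymphocyte markers or 6 epithelial markers had a row, and 1 of 6 endothelial markers, KDR, had one (10.29, 9.11 and 9.45).

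In CTCF-A KO, 30 of the 42 genes rose, 2 fell and 10 were not called. Their median difference from wild type was 0.74, against 0.00 for all genes tested, of which 31.8% rose and 31.1% fell (62.9% in either direction). With each library shifted to the same median, which put the median of all genes at 0.09, the split over all genes was 4302 higher and 2674 lower in place of 3540 and 3462, and 31 of the 42 rose and 2 fell. In CTCF-B KO, 21 rose, 1 fell and 20 were not called, with a median of 0.35, against 18.9% of all genes that rose and 20.6% that fell (39.4% in either direction). Rises of at least 2-fold were seen for 12 genes in CTCF-A KO and for 1, IFIT2, in CTCF-B KO, among 105 and 42 such genes of all 11128. The rises spanned 0.25 to 1.57 (CTCF-A KO) and 0.24 to 1.13 (CTCF-B KO). All 4 CTCF-A KO libraries lay above all 4 wild-type libraries for 28 genes, where 25.7% of all genes did, and all 4 CTCF-B KO libraries for 22 genes, where 26.2% of all genes did. They lay below all 4 wild-type libraries for 1 gene in CTCF-A KO, PARP14 (22.1% of all genes), and for 2 in CTCF-B KO, PARP14 and IFI27 (27.3% of all genes). CTCF-A KO lay wholly above CTCF-B KO for 18 genes (28.3% of all genes) and wholly below it for 1 (25.3%), NMI.

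By pattern, 19 of the 42 genes rose in both knockouts, where 8.03% of all genes did. Another 10 (ADAR, STAT2, NLRC5, IFITM2, IFITM3, LGALS3BP, GBP2, PSMB10, SP100 and PML) rose in CTCF-A KO and were not called in CTCF-B KO. NMI and GBP3 rose in CTCF-B KO and were not called in CTCF-A KO, and IFI27 rose in CTCF-A KO and fell in CTCF-B KO. PARP14 and DTX3L fell in CTCF-A KO and were not called in CTCF-B KO. The other 8, IFI16, EIF2AK2, IFIT5, HERC5, SAMD9, SAMD9L, TRIM22 and PARP9, were called in neither. The 2 comparisons share the wild-type libraries. They also share a spread pooled over all 3 groups, of which CTCF-A KO varied most. With only the 8 libraries of the 2 groups compared, 29.2% of all genes rose in CTCF-B KO, up from 18.9%. In CTCF-A KO the share was 28.5%, down from 31.8%. In CTCF-B KO, SP100, PSMB10, IFI16, IFIT5, HERC5, SAMD9 and SAMD9L were then called higher, and STAT2 and PARP14 lower. For these genes the lack of a call with all 12 libraries thus depended on which libraries set the spread. Compared directly, 21 genes were higher in CTCF-A KO than in CTCF-B KO, 5 were lower and 16 were not called, with a median difference of 0.29, against 33.4% of all genes higher and 32.6% lower (3717 and 3632, together 66%). The same shift gave 4171 higher and 2989 lower over all genes, and 23 higher and 3 lower among the 42. Without CTCF-A KO replicate 4 the genes lower in CTCF-A KO than in CTCF-B KO numbered 12, and 3, 2 and 3 without CTCF-A KO replicate 2, CTCF-A KO replicate 3 and CTCF-B KO replicate 4. Over all genes the shares lower were then 37.4%, 30.9%, 29.8% and 29.9%, in the same order, against 32.6% with all 12 libraries.

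**Figure D2:**
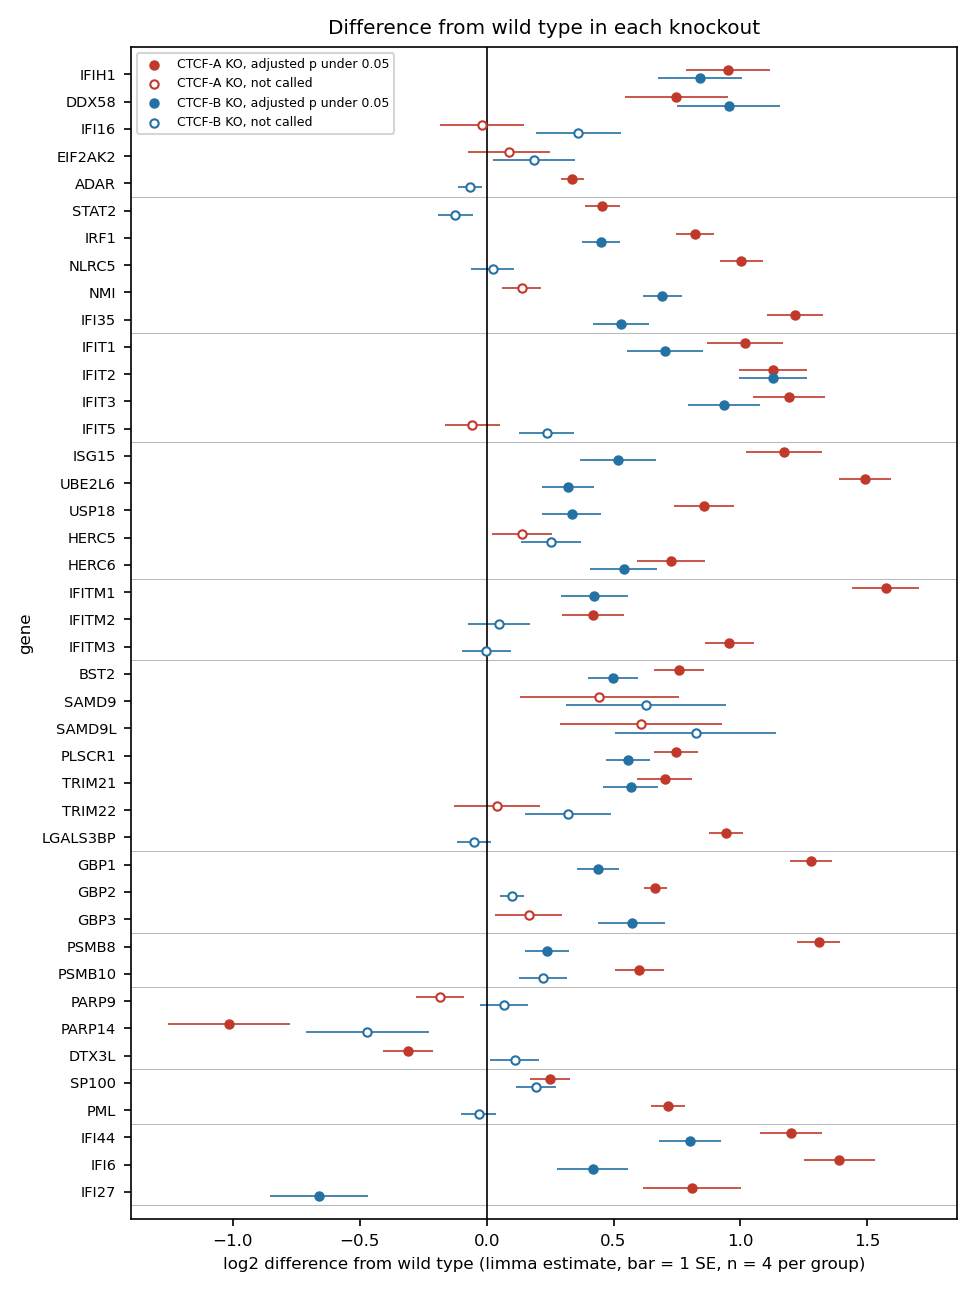
Difference from wild type of 42 interferon-stimulated genes in CTCF-A KO (red) and CTCF-B KO (blue), on the log2 scale, with bars of 1 standard error and filled points where the adjusted p is under 0.05; grey lines separate the roles. Most points lie right of 0, CTCF-A KO lies right of CTCF-B KO for the 3 IFITM genes and for the ISG15 conjugation genes other than HERC5, and PARP14 and IFI27 have points left of 0.

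Among the sensors of RNA and DNA, IFIH1 and DDX58 rose in both knockouts. IFIH1 encodes MDA5, a cytoplasmic sensor of long double-stranded RNA (chr2:162267079-162318703, GRCh38; all positions of genes are from GENCODE 29). It measured 7.54, 7.42, 7.81 and 7.45 in wild type, 8.51, 8.41, 8.18 and 8.93 in CTCF-A KO cells and 8.33, 8.08, 8.38 and 8.80 in CTCF-B KO cells (replicates 1 to 4, as in every such list). Every knockout library lay above every wild-type library, by 0.95 ± 0.17 on average in CTCF-A KO (adjusted p = 0.000327, limma) and 0.84 ± 0.17 in CTCF-B KO (adjusted p = 0.00133). DDX58 encodes RIG-I, the sensor of short double-stranded RNA with a 5′ triphosphate (chr9:32455705-32526324). Its values were 8.84, 8.52, 9.08 and 8.67 in wild type, 9.35, 9.42, 9.14 and 10.19 in CTCF-A KO cells and 9.67, 9.43, 9.74 and 10.09 in CTCF-B KO cells. The groups separated here too, and the difference was 0.75 ± 0.20 in CTCF-A KO (adjusted p = 0.00659) and 0.95 ± 0.20 in CTCF-B KO (adjusted p = 0.00235). The direct difference between the knockouts was not called for either sensor, at 0.11 ± 0.17 for IFIH1 and -0.21 ± 0.20 for DDX58 (CTCF-A KO minus CTCF-B KO, adjusted p = 0.581 and 0.384).

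ADAR, which edits adenosines in double-stranded RNA, rose by 0.34 ± 0.05 in CTCF-A KO (adjusted p = 5.27e-05) and stood at -0.07 ± 0.05 in CTCF-B KO (adjusted p = 0.282). The direct difference between the knockouts passed the test at 0.40 ± 0.05 (adjusted p = 7.82e-06). IFI16, a DNA sensor, and EIF2AK2, the kinase PKR that halts translation on double-stranded RNA, were not called in either knockout, with differences of -0.02 and 0.09 in CTCF-A KO cells and 0.36 and 0.19 in CTCF-B KO cells. IFI16 measured 9.32, 9.67, 9.55 and 10.34 in the CTCF-A KO libraries, so that replicate 4 was the highest and replicate 1 the lowest. In replicate 4 alone the differences from wild type were 0.60 for IFI16 and 0.64 for EIF2AK2, with no spread of their own.

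Of the transcription factors and regulators, IRF1 and IFI35 rose in both knockouts, STAT2 and NLRC5 in CTCF-A KO, and NMI in CTCF-B KO. IRF1, a transcription factor induced by interferon gamma (chr5:132481609-132490798), stood at 8.47, 8.39, 8.40 and 8.37 in wild type, 9.45, 9.24, 9.23 and 9.003 in CTCF-A KO cells and 8.79, 8.86, 8.89 and 8.90 in CTCF-B KO cells. The 3 groups did not overlap and were ordered wild type, CTCF-B KO, CTCF-A KO. IRF1 was 0.82 ± 0.08 above wild type in CTCF-A KO (adjusted p = 1.7e-06) and 0.45 ± 0.08 in CTCF-B KO (adjusted p = 0.000428), while the knockouts differed by 0.37 ± 0.08 (adjusted p = 0.000858).

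NLRC5 is the transactivator of MHC class I genes (chr16:56989485-57083531). Its levels were 8.38, 8.38, 8.42 and 8.30 in wild type, 9.61, 9.31, 9.27 and 9.30 in CTCF-A KO cells and 8.47, 8.25, 8.29 and 8.57 in CTCF-B KO cells. The CTCF-A KO libraries were all above the rest, with replicate 1 the highest, while the CTCF-B KO and wild-type libraries overlapped. NLRC5 rose by 1.00 ± 0.09 in CTCF-A KO, a 2.00-fold change (adjusted p = 8.2e-07), and differed by 0.02 ± 0.09 in CTCF-B KO (adjusted p = 0.85); the knockouts differed by 0.98 ± 0.09 (adjusted p = 6.19e-07).

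IFI35, a leucine-zipper partner of NMI (chr17:43006725-43014456), measured 9.45, 9.39, 9.63 and 9.43 in wild type, 11.11, 10.58, 10.62 and 10.47 in CTCF-A KO cells and 9.98, 9.96, 9.98 and 10.10 in CTCF-B KO cells. All 3 groups were separate, in the order wild type, CTCF-B KO, CTCF-A KO. The rise was 1.22 ± 0.11 in CTCF-A KO (adjusted p = 1.47e-06) and 0.53 ± 0.11 in CTCF-B KO (adjusted p = 0.00205). Its partner NMI followed another order: the CTCF-B KO libraries, at 8.22, 8.09, 8.19 and 8.32, were above every other library, with a rise of 0.69 ± 0.08 over wild type (adjusted p = 1.52e-05). In CTCF-A KO, NMI differed from wild type by 0.14 ± 0.08 (adjusted p = 0.136), and it was lower there than in CTCF-B KO by a difference of -0.55 ± 0.08 (adjusted p = 4.05e-05). STAT2, a subunit of the complex that binds the ISRE, rose by 0.46 ± 0.07 in CTCF-A KO (adjusted p = 0.000108) and measured -0.12 ± 0.07 in CTCF-B KO (adjusted p = 0.177).

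The IFIT genes encode proteins that bind viral RNA ends and block translation, and lie side by side on chromosome 10 from IFIT2 at chr10:89283694-89309276 to IFIT5 at chr10:89414586-89421001. IFIT1, IFIT2 and IFIT3 rose in both knockouts and IFIT5 in neither. IFIT2 measured 7.27, 7.41, 7.35 and 7.22 in wild type, 8.24, 8.32, 8.29 and 8.92 in CTCF-A KO cells and 8.39, 8.22, 8.58 and 8.57 in CTCF-B KO cells. The knockout libraries all lay above the wild-type libraries, and the knockouts overlapped. Its rise was 1.13 ± 0.13 in CTCF-A KO (adjusted p = 1.5e-05) and 1.13 ± 0.13 in CTCF-B KO (adjusted p = 2.64e-05), 2.19-fold in each, and the direct test between the knockouts gave an adjusted p of 0.997 with a standard error of 0.13.

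IFIT1 was recorded at 9.87, 9.56, 10.09 and 9.58 in wild type, 11.05, 10.69, 10.49 and 10.93 in CTCF-A KO cells and 10.48, 10.19, 10.48 and 10.76 in CTCF-B KO cells. Its groups did not overlap wild type, and the knockouts overlapped each other. The differences were 1.02 ± 0.15 in CTCF-A KO (adjusted p = 8.12e-05) and 0.70 ± 0.15 in CTCF-B KO (adjusted p = 0.00223). IFIT3 stood at 8.34, 7.99, 8.44 and 8.02 in wild type, 9.56, 9.30, 9.09 and 9.60 in CTCF-A KO cells and 9.03, 8.88, 9.22 and 9.40 in CTCF-B KO cells. Again each knockout library was above each wild-type library, by 1.19 ± 0.14 in CTCF-A KO (adjusted p = 1.45e-05) and 0.94 ± 0.14 in CTCF-B KO (adjusted p = 0.000185). IFIT5 differed by -0.06 ± 0.11 in CTCF-A KO (adjusted p = 0.669) and 0.24 ± 0.11 in CTCF-B KO (adjusted p = 0.104). The promoters of IFIT1, IFIT3 and IFIT5 each hold more than 1 ISRE core. The genes that flank the cluster, up to 10 tested genes on each side, had median differences of -0.34 in CTCF-A KO cells and -0.11 in CTCF-B KO cells.

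ISG15 is a ubiquitin-like protein that UBE2L6, the conjugating enzyme, and HERC5, the ligase, attach to other proteins, and that USP18 removes. ISG15 (chr1:1001138-1014540), UBE2L6 (chr11:57551656-57568284), USP18 (chr22:18149899-18177397) and HERC6, a relative of HERC5, rose in both knockouts. ISG15 measured 10.80, 10.71, 11.10 and 10.81 in wild type, 12.56, 11.95, 11.90 and 11.69 in CTCF-A KO cells and 11.39, 11.25, 11.31 and 11.54 in CTCF-B KO cells. Wild type was lowest and CTCF-A KO highest, with no overlap between any 2 groups. The rise was 1.17 ± 0.15 in CTCF-A KO (adjusted p = 2.79e-05) and 0.52 ± 0.15 in CTCF-B KO (adjusted p = 0.015), while the knockouts differed by 0.65 ± 0.15 (adjusted p = 0.00188).

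UBE2L6 had values of 7.70, 7.85, 7.80 and 7.90 in wild type, 9.57, 9.24, 9.31 and 9.09 in CTCF-A KO cells and 8.17, 7.89, 8.29 and 8.18 in CTCF-B KO cells. The CTCF-A KO libraries stood well above the other 8, while CTCF-B KO replicate 2, at 7.89, fell inside the wild-type range. Its rise was 2.81-fold in CTCF-A KO, or 1.49 ± 0.10 (adjusted p = 1.1e-07), and 0.32 ± 0.10 in CTCF-B KO (adjusted p = 0.0233). The CTCF-B KO call was lost without wild-type replicate 1 or 3 or CTCF-B KO replicate 1, 3 or 4, with adjusted p of 0.0513 to 0.0756. USP18 measured 8.06, 7.69, 7.74 and 7.67 in wild type, 8.95, 8.57, 8.48 and 8.58 in CTCF-A KO cells and 8.22, 7.99, 7.98 and 8.30 in CTCF-B KO cells. In CTCF-A KO every library exceeded wild type, and in CTCF-B KO 2 libraries lay below wild-type replicate 1. USP18 rose by 0.86 ± 0.12 in CTCF-A KO (adjusted p = 4.62e-05) and 0.33 ± 0.12 in CTCF-B KO (adjusted p = 0.0368), where the call was lost without wild-type replicate 2, 3 or 4 or CTCF-B KO replicate 1 or 4 (adjusted p = 0.0804 to 0.108). HERC6 rose by 0.73 ± 0.13 and 0.54 ± 0.13 (adjusted p = 0.000489 and 0.00613, CTCF-A KO first), and HERC5 was not called, at 0.14 ± 0.12 and 0.25 ± 0.12.

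The IFITM genes encode membrane proteins that restrict virus entry, and lie together at the tip of chromosome 11. IFITM1 (chr11:313506-315272) had the largest rise of the 42 genes in CTCF-A KO. It measured 6.91, 6.76, 6.99 and 6.71 in wild type, 8.84, 8.35, 8.35 and 8.12 in CTCF-A KO cells and 7.21, 7.11, 7.24 and 7.50 in CTCF-B KO cells. The 3 groups were separate, with CTCF-B KO nearer to wild type. IFITM1 was 2.97-fold higher than wild type in CTCF-A KO, a difference of 1.57 ± 0.13 (adjusted p = 7.87e-07), and higher by 0.42 ± 0.13 in CTCF-B KO (adjusted p = 0.0222); the direct difference between the knockouts was 1.15 ± 0.13 (adjusted p = 8e-06). The call in CTCF-B KO was lost without wild-type replicate 2 or 4 or CTCF-B KO replicate 4 (adjusted p = 0.0591, 0.0649 and 0.0721).

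IFITM3 (chr11:319669-327537) stood at 10.87, 10.89, 10.88 and 10.94 in wild type, 12.18, 11.86, 11.84 and 11.53 in CTCF-A KO cells and 10.88, 10.85, 10.90 and 10.95 in CTCF-B KO cells. The CTCF-A KO libraries were all higher than the other 8, and the CTCF-B KO and wild-type libraries overlapped. Its rise in CTCF-A KO was 0.96 ± 0.10 (adjusted p = 4.07e-06); the difference in CTCF-B KO was -0.0011 ± 0.10 (adjusted p = 0.994). IFITM2 rose by 0.42 ± 0.12 in CTCF-A KO (adjusted p = 0.00939) and differed by 0.05 ± 0.12 in CTCF-B KO (adjusted p = 0.786). The rise of IFITM2 was not called after removal of the GC and length trend (0.22, adjusted p = 0.0737) or with CTCF-A KO replicate 4 alone (0.14, adjusted p = 0.501). The gene model of IFITM2 (chr11:307631-315272) spans that of IFITM1 and the IFITM genes are close paralogs, so reads may have been split between them and the values of single members are uncertain. The up to 10 tested genes on each side of the IFITM cluster had medians of 0.14 in CTCF-A KO cells and 0.06 in CTCF-B KO cells.

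**Figure D3:**
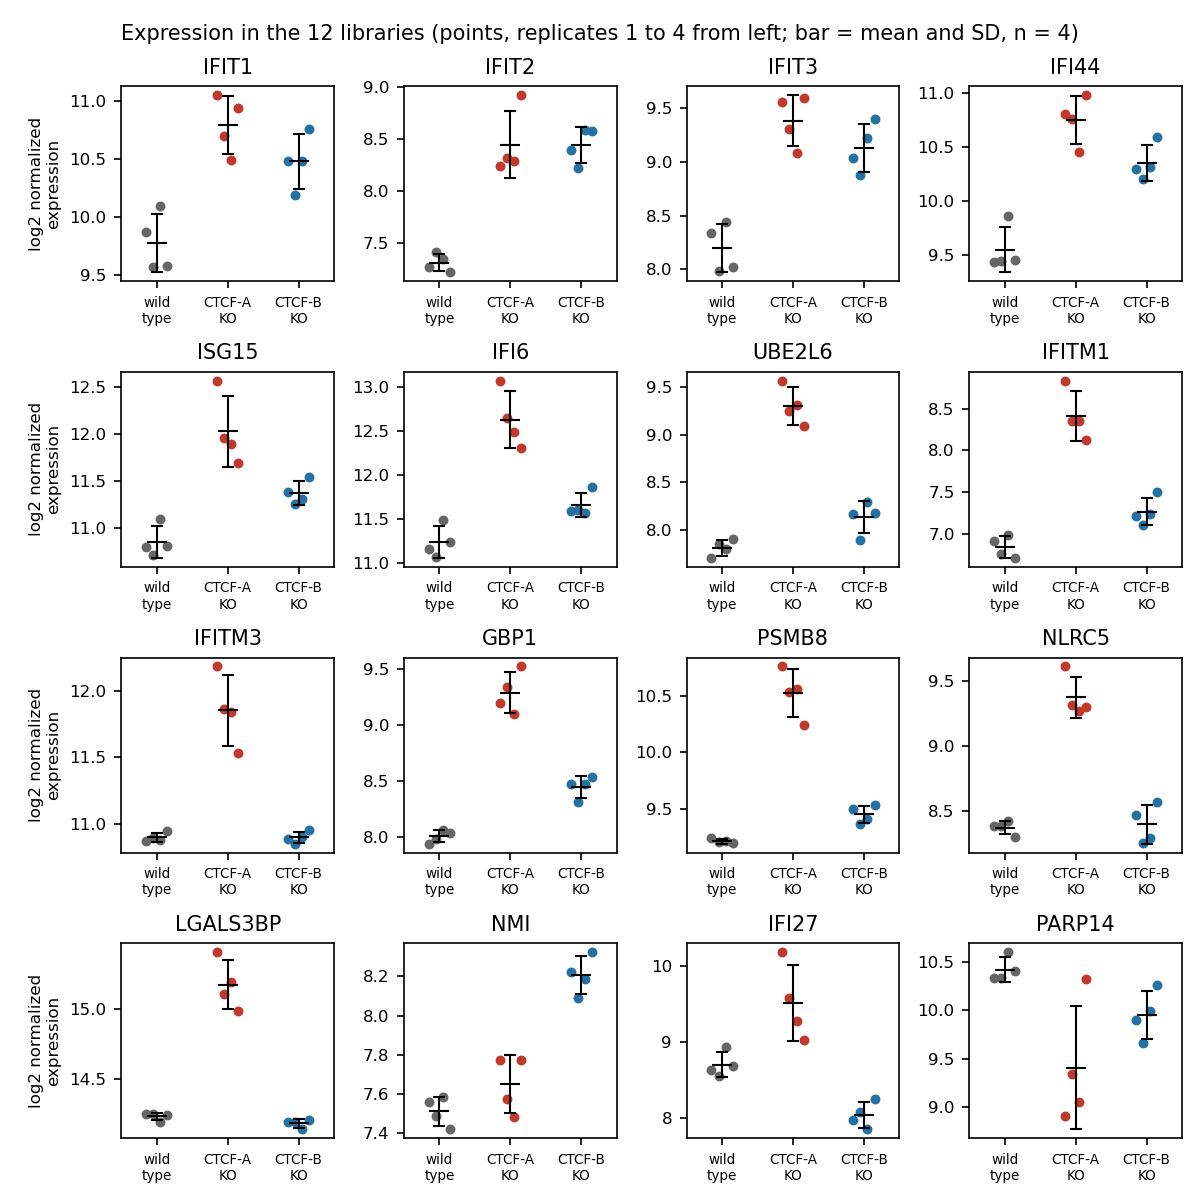
Log2 normalized expression of selected interferon-stimulated genes in each of the 12 libraries, grouped by genotype, with points for replicates 1 to 4 from left and bars for the mean and SD (n = 4). IFIT2 overlaps between the knockouts, the CTCF-A KO points of IFITM3 and LGALS3BP stand apart from the other 8 libraries, and IFI27 is above wild type in CTCF-A KO and below it in CTCF-B KO.

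Other antiviral effectors were mixed. BST2, the tetherin that holds budding virus at the cell surface, rose by 0.76 ± 0.10 in CTCF-A KO cells and 0.50 ± 0.10 in CTCF-B KO cells (adjusted p = 3.1e-05 and 0.00138). PLSCR1, a phospholipid scramblase, rose by 0.75 ± 0.09 and 0.56 ± 0.09, and TRIM21, a cytosolic antibody receptor and ubiquitin ligase, by 0.70 ± 0.11 and 0.57 ± 0.11, CTCF-A KO first. TRIM22, another ubiquitin ligase of the family, was not called (0.04 ± 0.17 and 0.32 ± 0.17).

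LGALS3BP, a secreted glycoprotein that binds galectin 3 (chr17:78971238-78980109), measured 14.24, 14.25, 14.19 and 14.24 in wild type, 15.41, 15.11, 15.19 and 14.99 in CTCF-A KO cells and 14.19, 14.19, 14.14 and 14.20 in CTCF-B KO cells. CTCF-A KO lay above all the other libraries, and CTCF-B KO overlapped wild type. The rise in CTCF-A KO was 0.94 ± 0.07 (adjusted p = 1.58e-07), the difference in CTCF-B KO -0.05 ± 0.07 (adjusted p = 0.579), and that between the knockouts 1.00 ± 0.07 (adjusted p = 5.94e-08).

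SAMD9 and SAMD9L, neighbouring genes whose products restrict poxviruses, had the largest standard errors of the 42 genes. SAMD9L measured 7.26, 6.77, 7.73 and 7.28 in wild type, 7.36, 8.01, 7.23 and 8.87 in CTCF-A KO cells and 7.90, 7.66, 8.37 and 8.40 in CTCF-B KO cells. In CTCF-A KO, replicates 1 and 3 lay within the wild-type range and replicates 2 and 4 above it. Its differences were 0.61 ± 0.32 in CTCF-A KO (adjusted p = 0.111) and 0.82 ± 0.32 in CTCF-B KO (adjusted p = 0.0557), and those of SAMD9 were 0.44 ± 0.31 and 0.63 ± 0.31 (adjusted p = 0.231 and 0.132). In CTCF-A KO replicate 4 alone the differences were 1.61 for SAMD9L and 1.29 for SAMD9, with no spread of their own. With the GC and length trend removed over all 12 libraries they were 1.07 and 0.94 (adjusted p = 0.000657 and 0.00148).

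The guanylate-binding proteins are GTPases that attack intracellular pathogens, and their genes lie side by side on chromosome 1. GBP1 (chr1:89052319-89065360) rose in both knockouts. It stood at 7.94, 7.99, 8.07 and 8.04 in wild type, 9.19, 9.34, 9.10 and 9.52 in CTCF-A KO cells and 8.47, 8.31, 8.47 and 8.53 in CTCF-B KO cells. No 2 groups overlapped. The rise was 2.43-fold in CTCF-A KO, or 1.28 ± 0.08 (adjusted p = 7.21e-08), and 0.44 ± 0.08 in CTCF-B KO (adjusted p = 0.001). GBP2 rose in CTCF-A KO by 0.67 ± 0.05 (adjusted p = 1.33e-07) and measured 0.10 ± 0.05 in CTCF-B KO (adjusted p = 0.103). GBP3 rose in CTCF-B KO by 0.57 ± 0.13 (adjusted p = 0.00398), stood 0.17 ± 0.13 from wild type in CTCF-A KO (adjusted p = 0.288), and was lower in CTCF-A KO than in CTCF-B KO, at -0.41 ± 0.13 (adjusted p = 0.016). That difference between the knockouts was not called without CTCF-A KO replicate 3 (adjusted p = 0.0515) or with the GC and length trend removed (-0.12, adjusted p = 0.15), and was 0.04 with replicate 4 as the lone CTCF-A KO library. The GBP genes are similar in sequence, so reads may have been split between them.

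PSMB8 and PSMB10 encode inducible subunits of the immunoproteasome, which cuts peptides for MHC class I. PSMB8 (chr6:32840717-32844703) measured 9.25, 9.21, 9.21 and 9.20 in wild type, 10.76, 10.54, 10.56 and 10.24 in CTCF-A KO cells and 9.50, 9.37, 9.42 and 9.54 in CTCF-B KO cells. All CTCF-A KO libraries were above 10, and the CTCF-B KO libraries sat just above wild type without overlap. It rose 2.48-fold in CTCF-A KO, or by 1.31 ± 0.09 (adjusted p = 7.75e-08), and by 0.24 ± 0.09 in CTCF-B KO (adjusted p = 0.0417). The call in CTCF-B KO was lost without any 1 of the 4 wild-type libraries, CTCF-A KO replicate 2 or 3, or CTCF-B KO replicate 1, 3 or 4, with adjusted p of 0.054 to 0.107. PSMB10 rose by 0.60 ± 0.10 in CTCF-A KO (adjusted p = 0.000152) and stood at 0.22 ± 0.10 in CTCF-B KO (adjusted p = 0.0796).

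PARP9, PARP14 and DTX3L, neighbours on chromosome 3, encode ADP-ribosyltransferases and the ubiquitin ligase partner of PARP9. PARP14 (chr3:122680618-122730840) measured 10.33, 10.34, 10.60 and 10.41 in wild type, 8.91, 9.34, 9.05 and 10.33 in CTCF-A KO cells and 9.90, 9.66, 9.99 and 10.26 in CTCF-B KO cells. CTCF-A KO replicates 1 to 3 lay well below all wild-type libraries, replicate 4 lay just under the lowest of them, and the CTCF-B KO libraries were also all below wild type. The difference was -1.01 ± 0.24 in CTCF-A KO, a 0.50-fold level (adjusted p = 0.00289), and -0.47 ± 0.24 in CTCF-B KO (adjusted p = 0.141). With CTCF-A KO replicate 4 alone it was -0.09 (adjusted p = 0.675).

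DTX3L fell by a difference of -0.31 ± 0.10 in CTCF-A KO (adjusted p = 0.0147) and stood at 0.11 ± 0.10 in CTCF-B KO (adjusted p = 0.407). It was not called with CTCF-A KO replicate 4 alone (0.05, adjusted p = 0.664), with the GC and length trend removed (-0.06, adjusted p = 0.431) or without CTCF-A KO replicate 3 (-0.25, adjusted p = 0.0516). PARP9 was not called in either knockout (-0.18 ± 0.09 and 0.07 ± 0.09). Of the nuclear body proteins, PML, the scaffold of PML bodies, rose by 0.71 ± 0.07 in CTCF-A KO (adjusted p = 2.03e-06) and stood at -0.03 ± 0.07 in CTCF-B KO, and SP100 rose by 0.25 ± 0.08 in CTCF-A KO (adjusted p = 0.0143), with 0.19 ± 0.08 in CTCF-B KO (adjusted p = 0.0675).

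IFI44, IFI6 and IFI27 are widely used markers of interferon responses. IFI44 (chr1:78649796-78664078) stood at 9.44, 9.45, 9.86 and 9.45 in wild type, 10.80, 10.76, 10.46 and 10.98 in CTCF-A KO cells and 10.29, 10.21, 10.32 and 10.59 in CTCF-B KO cells. Both knockouts were above wild type in every library, and the rise was 1.20 ± 0.12 in CTCF-A KO cells and 0.80 ± 0.12 in CTCF-B KO cells (adjusted p = 3.79e-06 and 0.000194). IFI6, a mitochondrial and endoplasmic reticulum protein (chr1:27666061-27672218), measured 11.16, 11.07, 11.49 and 11.24 in wild type, 13.07, 12.65, 12.49 and 12.31 in CTCF-A KO cells and 11.59, 11.60, 11.57 and 11.87 in CTCF-B KO cells. CTCF-A KO lay above all other libraries, by 1.39 ± 0.14 over wild type (adjusted p = 3.43e-06), and CTCF-B KO was just above wild type, by 0.42 ± 0.14 (adjusted p = 0.0299). The CTCF-B KO call of IFI6 was lost without wild-type replicate 1, 2 or 4 or CTCF-B KO replicate 2 or 4 (adjusted p = 0.0511 to 0.0905).

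IFI27 (chr14:94104836-94116698) was the 1 gene of the 42 called in opposite directions. Its values were 8.63, 8.55, 8.94 and 8.69 in wild type, 10.18, 9.57, 9.27 and 9.02 in CTCF-A KO cells and 7.98, 8.09, 7.85 and 8.25 in CTCF-B KO cells. Every CTCF-A KO library was above, and every CTCF-B KO library below, all 4 wild-type libraries. The difference from wild type was 0.81 ± 0.19 in CTCF-A KO (adjusted p = 0.00292) and -0.66 ± 0.19 in CTCF-B KO (adjusted p = 0.0155), while the knockouts differed by 1.47 ± 0.19 (adjusted p = 2.34e-05). The rise was 0.32 with CTCF-A KO replicate 4 alone and was then not called (adjusted p = 0.0897). The up to 10 tested genes on each side of IFI27 had medians of -0.0035 in CTCF-A KO cells and 0.11 in CTCF-B KO cells.

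The libraries of a group were not evenly matched for these genes. Over the 42 genes, the median deviation from the wild-type mean was -0.01, -0.08, 0.12 and -0.04 in wild-type replicates 1 to 4, 0.91, 0.73, 0.61 and 0.67 in CTCF-A KO, and 0.36, 0.18, 0.35 and 0.52 in CTCF-B KO. All 8 knockout libraries had a higher median than all 4 wild-type libraries. Wild-type replicate 3 was the highest of its group for 31 genes (73.8%, against 31.7% of all genes), and CTCF-B KO replicate 4 for 36 genes (85.7%, against 30.4%). The heat map of the 42 genes shows both libraries as redder columns than the rest of their groups.

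**Figure D4:**
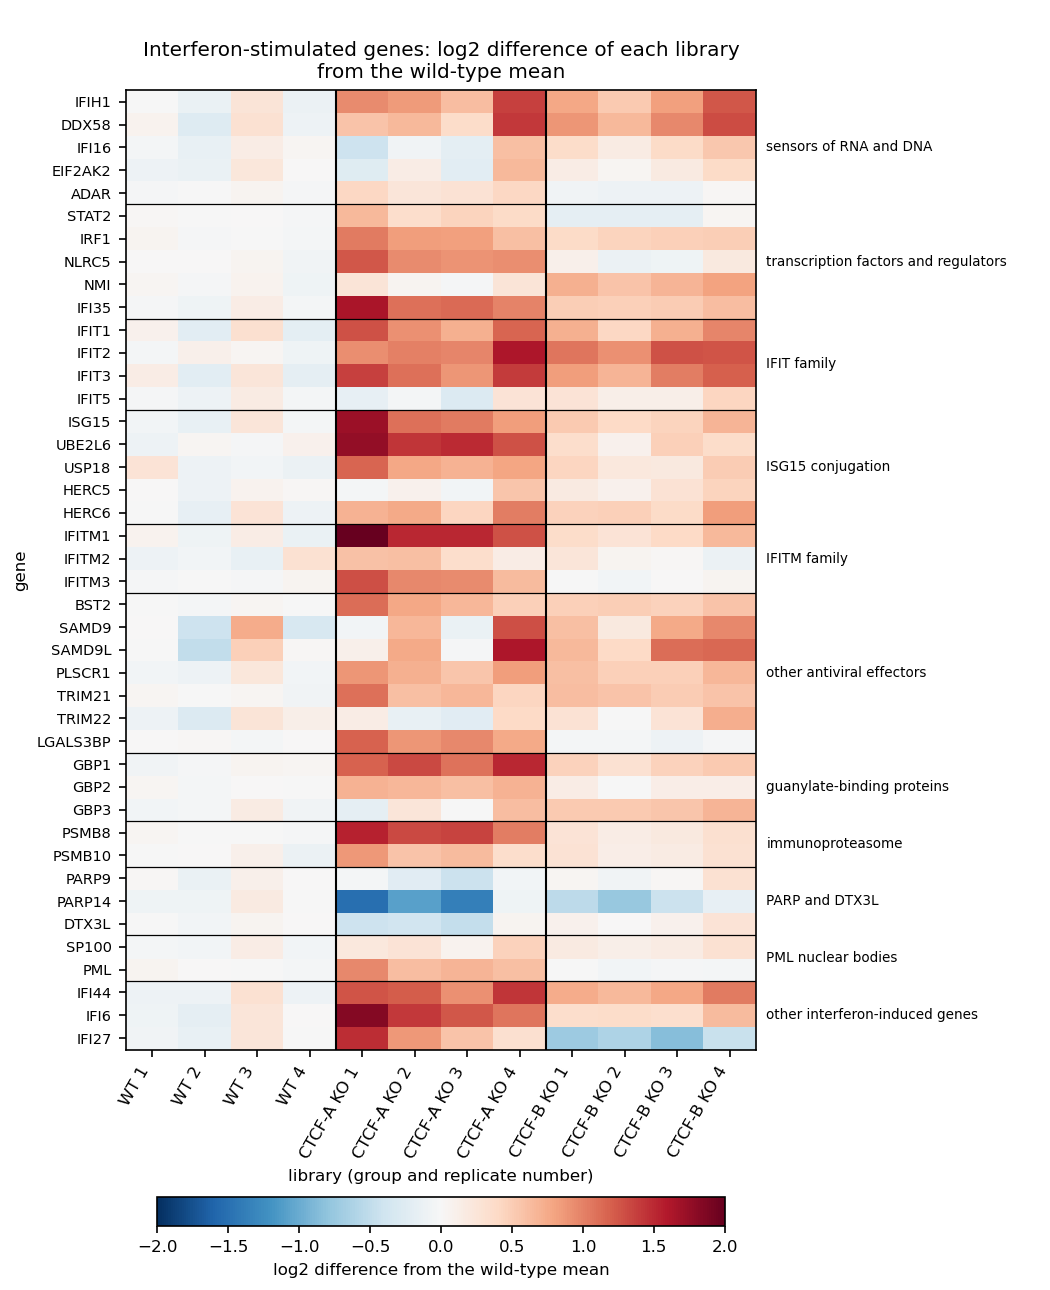
Heat map of 42 interferon-stimulated genes (rows, grouped by role) in 12 libraries (columns), coloured by the difference of each library from the wild-type mean on the log2 scale. The CTCF-A KO columns are raised for most rows, the CTCF-B KO columns less so, wild-type replicate 3 and CTCF-B KO replicate 4 stand above the other columns of their groups, and PARP14 is lowered in CTCF-A KO replicates 1 to 3.

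The 42 genes had a median GC content of 44.3% in their longest transcript, against 48.7% for all genes tested. All 10 genes not called in CTCF-A KO were among the 21 at or below that median, as were PARP14 and DTX3L, and all 21 above it rose there. The shares of all genes that rose in each GC class were not counted, so these counts are not read as particular to these genes. In CTCF-A KO replicates 1 to 4 the 21 genes at or below the median had median deviations of 0.15, 0.27, -0.03 and 0.64, and the 21 above it 1.16, 0.83, 0.70 and 0.70. The other genes tested, split at the same GC content, had medians of -0.48, -0.23, -0.33 and -0.04 below it and 0.20, 0.11, 0.15 and 0.02 above it. Within each CTCF-A KO library both GC classes of the interferon-stimulated genes therefore lay above the other genes of their class. In CTCF-B KO the class poor in GC had medians of 0.52, 0.30, 0.48 and 0.67, and the class rich in GC 0.30, 0.14, 0.19 and 0.32. With the GC and length trend removed from each library, 37 genes rose in CTCF-A KO, 30 in CTCF-B KO and 29 in both. Over all genes, 31.5% rose in CTCF-A KO under this setting, near the 31.8% before, and 28.9% in CTCF-B KO, up from 18.9%. The share of all genes that rose in both was not counted under this setting. The genes then called higher in CTCF-A KO, beyond those above, were IFI16, EIF2AK2, NMI, IFIT5, HERC5, SAMD9, SAMD9L and GBP3, and IFITM2 was no longer called.

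**Figure D5:**
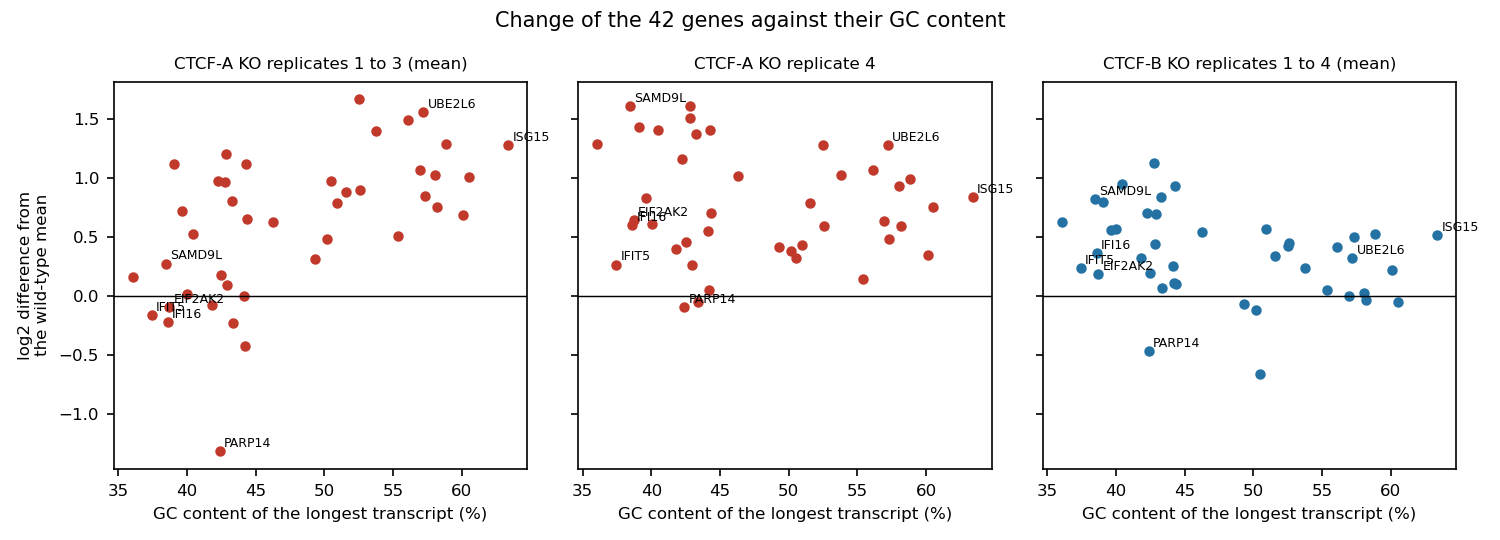
Mean log2 deviation from wild type of 42 interferon-stimulated genes (points) against the GC content of their longest transcript (x axis, %), in separate panels for CTCF-A KO replicates 1 to 3, CTCF-A KO replicate 4 and CTCF-B KO. In the first panel genes poor in GC lie lower than genes rich in GC, with a median of the poor class between -0.03 and 0.27 in these 3 libraries, against 0.64 in replicate 4.

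Set beside the ISRE, 15 of the 23 genes with a core match rose in CTCF-A KO cells and 13 in CTCF-B KO cells. Of the 11 without a match, 8 rose in CTCF-A KO cells and 5 in CTCF-B KO cells. Among the 204 other genes tested with a match, 39.7% rose with loss of CTCF-A and 22.1% with loss of CTCF-B, against 32.2% and 18.7% of the 8181 without one. The 204 were not cleared of further interferon-stimulated genes or of OAS and MHC genes. These shares are descriptions with no test.

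The rest of the interferon pathway was read from a list of genes outside the 42. No interferon gene of the 11 listed had a row, nor did IFNAR2 or IL10RB, and the absence of a row gives no level. Of 36 genes with a row, 17 rose and 10 fell in CTCF-A KO, and 9 rose and 7 fell in CTCF-B KO. Over all genes the shares were 31.8% and 31.1%, and 18.9% and 20.6%, in the same order. Among 4 receptors, IFNAR1 fell by a difference of -0.38 ± 0.12 in CTCF-A KO (adjusted p = 0.0158) and stood at -0.11 ± 0.12 in CTCF-B KO. After removal of the GC and length trend, the IFNAR1 difference in CTCF-A KO was -0.043 and not called (adjusted p = 0.438). IFNLR1, a receptor of lambda interferons, rose by 0.54 ± 0.09 in CTCF-A KO and fell in CTCF-B KO, with a difference of -0.57 ± 0.09 (adjusted p = 0.00036 and 0.000393); its rise was 0.39 and not called with replicate 4 as the lone CTCF-A KO library (adjusted p = 0.0543).

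Of 10 kinases and signal transducers, 7 rose and 1 fell in CTCF-A KO, and 1 rose and 2 fell in CTCF-B KO. JAK1 (0.08 and 0.15, CTCF-A KO first) and TYK2 (0.12 and 0.02) were not called, and JAK2 fell in CTCF-A KO (-0.65 ± 0.19, adjusted p = 0.0106). With the GC and length trend removed JAK1 rose in both knockouts, by 0.21 and 0.20 (limma, adjusted p = 0.00268 and 0.00363). TYK2 then rose in CTCF-B KO by 0.11 (adjusted p = 0.00441) and was not called in CTCF-A KO (-0.06). The fall of JAK2 was -0.25 with the GC and length trend removed (adjusted p = 0.0336) and -0.029 with replicate 4 as the lone CTCF-A KO library (adjusted p = 0.887). IRF3, a transcription factor activated by nucleic acid sensors, rose by 0.52 ± 0.07 in CTCF-A KO (adjusted p = 2.38e-05).

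Sensing adaptors and kinases numbered 13, with 6 higher and 3 lower in CTCF-A KO and 7 higher and 2 lower in CTCF-B KO. TRIM25, the ligase that activates RIG-I, rose by 0.82 ± 0.08 in CTCF-A KO cells and 0.68 ± 0.08 in CTCF-B KO cells (adjusted p = 2.01e-06 and 1.73e-05), and TBKBP1, a binding partner of the kinase TBK1, rose by 0.58 ± 0.09 in CTCF-B KO (adjusted p = 0.000213) and by 0.34 ± 0.09 in CTCF-A KO (adjusted p = 0.0053). The CTCF-A KO call of TBKBP1 was lost with the trend removed (0.14, adjusted p = 0.066). Of 9 negative regulators, 3 rose and 4 fell in CTCF-A KO, and none rose and 2 fell in CTCF-B KO. SOCS1, an inhibitor of JAK kinases, rose by 0.55 ± 0.11 in CTCF-A KO (adjusted p = 0.000873; 0.37 and not called with replicate 4 as the lone library, adjusted p = 0.0889), while PIAS1 and PTPN11 fell, with differences of -0.50 ± 0.16 and -0.75 ± 0.16 (adjusted p = 0.0171 and 0.00144). PIAS1 was not called with the GC and length trend removed (-0.073, adjusted p = 0.365) or without CTCF-A KO replicate 3 (adjusted p = 0.0526), and PTPN11 was -0.41 with the trend removed and -0.16, not called, with replicate 4 as the lone CTCF-A KO library (adjusted p = 0.076).

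A further 34 interferon-stimulated genes outside the 42 were measured, of which 25 rose and 3 fell in CTCF-A KO and 18 rose and 1 fell in CTCF-B KO, beside the same shares over all genes (31.8%, 31.1%, 18.9% and 20.6%). PARP12, an antiviral ADP-ribosyltransferase, rose by 1.34 ± 0.10 in CTCF-A KO cells and 0.85 ± 0.10 in CTCF-B KO cells (adjusted p = 3.44e-07 and 3.11e-05). UBA7, the E1 enzyme of ISG15, rose by 1.23 ± 0.12 and 0.47 ± 0.12 (adjusted p = 2.03e-06 and 0.00568), while the ligase HERC5 was not called in either knockout. The differences of HELZ2, APOL6, SHFL and RBCK1, called in both knockouts, were 1.02, 0.85, 0.84 and 0.62 in CTCF-A KO cells and 0.42, 0.78, 0.57 and 0.79 in CTCF-B KO cells. The butyrophilins BTN3A1, BTN3A2 and BTN3A3 rose by 1.04, 0.98 and 0.92 in CTCF-A KO and by 0.33, 0.21 and 0.34 in CTCF-B KO (adjusted p = 0.00159, 0.00465 and 0.00103 in the latter). The proteasome activator subunits PSME1 and PSME2 rose by 0.55 and 0.65 in CTCF-A KO and were not called in CTCF-B KO.

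PARP10, SP110, APOL2, SAMHD1, TRIM14 and ZNFX1 rose in CTCF-A KO by 0.84, 0.83, 0.82, 0.81, 0.79 and 0.78, and N4BP1 fell, with a difference of -0.53. Of these, APOL2, SAMHD1 and ZNFX1 also rose in CTCF-B KO, by 0.38, 0.21 and 0.38 (adjusted p = 9.64e-05, 0.034 and 0.000179), and the others were not called there. The CTCF-B KO call of SAMHD1 was lost without wild-type replicate 1, 2 or 4 or CTCF-B KO replicate 1, 3 or 4, with adjusted p of 0.0595 to 0.101. SLFN5, WARS1, TRIM38 and CASP4 rose in both knockouts and, like RBCK1 (adjusted p = 0.0268), were higher in CTCF-B KO than in CTCF-A KO by the direct test (adjusted p = 8.67e-05, 7.55e-06, 0.0256 and 5.71e-05). Their differences from wild type were 1.00, 0.88, 0.60 and 0.56 in CTCF-B KO and 0.31, 0.36, 0.42 and 0.23 in CTCF-A KO, where the call of SLFN5 was lost without wild-type replicate 2 (adjusted p = 0.056). With the GC and length trend removed, the order turned for TRIM38 and CASP4. Their differences were then 0.86 and 0.62 in CTCF-A KO and 0.65 and 0.56 in CTCF-B KO. SLFN5, WARS1 and RBCK1 kept the larger difference in CTCF-B KO. The direct test of these genes was not followed under that setting.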

How the data were processed

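RNA-seq was available for 12 U251-APP libraries in 3 groups of 4. Per the submitters' processing notes, Trimmomatic 0.33, featureCounts and DESeq2 were used with GRCh38.p7 (hg38). The aligner, annotation, strand setting, gene filter and log2 transformation are not given in the sources used here. The authors deposited 1 table of 11178 genes holding normalized values on a log2 scale, as the values show, and these were used as they stood. Sequencing depth is unknown, so no counting interval is given.

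A gene was kept where its linear value was at least 10 in at least 4 of 12 libraries. The 12 libraries entered 1 linear model with a mean per group in limma 3.58.1 (R 4.3.3; moderated variances with an intensity trend), with 9 residual degrees of freedom, two-sided tests and Benjamini-Hochberg adjustment at 0.05. It was tested on simulated independent normal values with 1 spread per gene for all 12 libraries. That setting does not copy the uneven spread or the GC trend of CTCF-A KO. The members and lists were chosen with earlier results of these data known. Values in all libraries were printed for called members with an absolute difference of at least 0.8 in either knockout. Pathway and further genes were named where called with at least 0.5 in either knockout, and IFNAR1, JAK1 and TYK2 whatever their values. One gene of the naming rule is not reported here. A few other members' values were printed to show the libraries behind a result. The alternatives were no filter or a stricter one, quantile or median scaling, no variance trend, 8 libraries, array weights, removal of the GC and length trend (natural splines of 5 and 4 degrees of freedom per library), replicate number as a block, CTCF-A KO replicate 4 alone, and omission of each library. Promoters came from RefSeq (GRCh38.p14). Per-sample columns left unused numbered 0.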

Additional observations from a re-analysis of the deposited data

Results flagged for a closer look

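Among 4 libraries of a group, a library can stand far from the other 3. By Dixon's criterion 11 of 126 combinations of gene and group held such a library. The nominal rate of about 1 in 20 holds for independent normal values. These combinations share libraries and are not independent, and the share over all genes was not counted, so no excess is read from the count. Wild-type replicate 3 stood high in 5 of them, with ADAR at 13.04, SP100 at 9.89, IFI44 at 9.86, PLSCR1 at 9.43 and GBP3 at 8.17. CTCF-B KO replicate 4 stood high in 3, with IFI6 at 11.87, STAT2 at 10.33 and IFI35 at 10.10. CTCF-B KO replicate 2 was low for GBP2 at 9.26. In CTCF-A KO, replicate 4 was high for IFIT2 at 8.92, and replicate 1 for NLRC5 at 9.61.

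IFI27 moved in opposite directions in the knockouts: every CTCF-A KO library lay above and every CTCF-B KO library below wild type, and the direct difference was 1.47 ± 0.19 (limma, adjusted p = 2.34e-05).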

How the results depend on the processing

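Of the 30 rises in CTCF-A KO, 28 were called under all 23 alternatives, the exceptions being IFITM2 and IFI27. Of the 21 rises in CTCF-B KO, 16 were, the exceptions being UBE2L6, USP18, IFITM1, PSMB8 and IFI6; the fall of IFI27 there was kept. Neither fall in CTCF-A KO, of PARP14 and DTX3L, was called under all of them. Of the 21 genes higher in CTCF-A KO than in CTCF-B KO, 16 were, the exceptions being IRF1, IFITM2, BST2, PSMB10 and IFI44. Of the 5 lower, 1 was, the exceptions being IFIT5, GBP3, PARP9 and DTX3L. The cause was not tested. With CTCF-A KO replicate 4 alone, that library is assumed to vary like the other groups. The unknown depth leaves counting error unmeasured, and array weights stopped before convergence.

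Genes of the 42 higher in CTCF-A KO numbered 30 to 32 without 1 library, and those lower (2) 1 to 4, with 1 without CTCF-A KO replicate 3 and 4 without CTCF-A KO replicate 4. They were 7 with array weights, 1 with the GC and length trend removed, with or without the block, and 0 with CTCF-A KO replicate 4 alone. Those higher in CTCF-B KO (21) numbered 16 to 28 without 1 library, and 32 with array weights and with the block and trend removal together. With array weights the share of all genes lower moved from 31.1% to 41.3% in CTCF-A KO and from 20.6% to 32.1% in CTCF-B KO. In CTCF-A KO against CTCF-B KO it moved from 32.6% to 43.1%. The share of all genes higher in CTCF-B KO moved too, from 18.9% to 25.5% without CTCF-A KO replicate 4, 31.7% with array weights and 29.2% with the block and trend removal. Those lower in CTCF-B KO (1) numbered 1 to 2 without 1 library, 3 with 8 libraries or CTCF-A KO replicate 4 alone, 5 with array weights and 2 with trend removal, with or without the block. Higher in both (19) were 14 to 21 without 1 library, 29 with trend removal and 30 with the block added (all-gene share not counted). In CTCF-A KO against CTCF-B KO, 19 to 24 were higher without 1 library and 2 to 12 lower (5 with all). Lower there were 3 after the median shift or with 8 libraries, 16 with array weights, and 2 with trend removal, with or without the block. Over all genes the share lower there was 26.9% after the median shift and 29.5% with 8 libraries. It was 35.6% with trend removal and 35.7% with the block added.

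Pathway genes lower in CTCF-A KO (10) were 6 with trend removal, with or without the block, and 7 to 12 without 1 library. Those higher in CTCF-B KO (9) were 14 with 8 libraries, array weights or CTCF-A KO replicate 4 alone, 15 with trend removal, 16 with the block added, and 9 to 12 without 1 library. The all-gene share higher in CTCF-B KO moved from 18.9% to 29.2% with 8 libraries, 31.7% with array weights and 28.9% with trend removal. It was 29.2% with the block added. The all-gene share lower in CTCF-A KO moved from 31.1% to 30.0% with trend removal, with or without the block. Pathway genes lower in CTCF-A KO than in CTCF-B KO (10) were 16 with array weights. Further interferon-stimulated genes lower in CTCF-A KO (3) were 1 after the median shift, 7 with array weights and 2 to 6 without 1 library, the highest without CTCF-A KO replicate 4. Those lower in CTCF-B KO (1) were 3 with 8 libraries, array weights or CTCF-A KO replicate 4 alone, 2 with trend removal, and 1 to 3 without 1 library, the highest without CTCF-A KO replicate 4.

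Some differences turned sign, and none of these was called in the sense opposite to a call with all 12 libraries. Differences between the knockouts were checked for a change of sign only for members called there with all 12 libraries. They were not checked for pathway genes or for further interferon-stimulated genes such as TRIM38 and CASP4. With CTCF-A KO replicate 4 alone, the CTCF-A KO differences were 0.60 for IFI16, 0.047 for DTX3L, 0.023 for IFNAR1 and 0.11 for PIAS1, and the differences from CTCF-B KO 0.030 for IFIT5, -0.016 for BST2 and 0.040 for GBP3. With the trend removed, with or without the block, the CTCF-A KO differences were 0.32 for IFI16 and 0.28 for IFIT5, and those from CTCF-B KO 0.055 for IFIT5 and 0.0035 for PARP9. With array weights they were -0.17 for EIF2AK2 and -0.20 for TRIM22 in CTCF-A KO.

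Replicate numbers did not pair the samples: deviations of same-numbered libraries correlated at -0.32 to 0.43. With the replicate block, 30 genes were higher and 2 lower in CTCF-A KO, in CTCF-B KO 23 and 1, 21 and 7 in CTCF-A KO against CTCF-B KO, and 19 higher in both. Over all genes the shares higher and lower were then 31.76% and 31.69% in CTCF-A KO and 18.95% and 20.71% in CTCF-B KO. Between the knockouts they were 33.38% and 33.29%. The share of all genes higher in both was not counted with the block.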

Other observations

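Genes beside the interferon-stimulated genes were read as the median difference of up to 10 tested genes on each side. Near IFI35 it was 0.43 in CTCF-A KO cells and 0.15 in CTCF-B KO cells, near LGALS3BP 0.40 and 0.06, and near BST2 0.31 and 0.14, against rises of 1.22, 0.94 and 0.76 of these genes themselves in CTCF-A KO. Near NMI the medians were -0.42 and -0.17, near the SAMD9 genes -0.31 and 0.01, and near the HERC genes -0.30 and 0.24. Near PARP14, which fell in CTCF-A KO, they were 0.02 and 0.11.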
